A study of Caenorhabditis elegans with 2 samples.

Results

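Binding of MADF-6 was examined at the 9 genes that encode the synaptonemal complex and chromosome axis proteins SYP-1 to SYP-5, HTP-1 to HTP-3 and HIM-3, out of 19973 annotated protein-coding genes on the 6 nuclear chromosomes of Caenorhabditis elegans. The 9 were taken by name, and for each of them the peaks whose summit lay within 1000 bp of the annotated 5′ end were collected. The conservative peak list held such a summit at 7 of the 9 genes, against 15.8% of all protein-coding genes. The highest was at syp-5, ranked 37 among 4384 conservative peaks, while the axis genes ranked from 2443 to 4039 or had no conservative summit. Of the other central region genes, syp-3 ranked 2751, within the axis range, and syp-1 had no conservative summit.

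MADF-6 takes its name from the MADF fold, which binds DNA. Chromatin immunoprecipitation was performed with an antibody against GFP on whole animals of strain RW12237, in which a CRISPR insertion in madf-6 encodes a TY1, EGFP and 3xFLAG tag. Animals had been synchronised by starving first-stage larvae after bleaching and were collected as young adults at 63 h. There was 1 group with 2 biological replicates, called against a shared control, and no untagged strain was analysed here. Whole animals were used, so germline and somatic binding cannot be told apart.

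The synaptonemal complex is a zipper-like protein structure that assembles between paired homologous chromosomes in meiotic prophase. The SYP proteins form its central region, which bridges the homologs. HTP-1, HTP-2, HTP-3 and HIM-3 are HORMA-domain proteins of the chromosome axis, the protein core along which the chromatin loops of each homolog are organised and on which the central region assembles. In the adult hermaphrodite this occurs in the germline.

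Of the 8 deposited peak lists, 4 combine the replicates and each replicate has a thresholded and a ranked list of its own. Peak signal is the authors' enrichment value, and its scale differs between lists. Values are therefore compared within a list, and ranks in lists of different length are given side by side only. The sole comparison across lists is the ratio of the replicates' signals at a summit, which is read against the same ratio over all matched summits. The score is a scaled reproducibility value capped at 1000, and thresholded lists hold peaks scoring at least 830. Offsets are distances from the 5′ end, given as upstream or inside the gene. Read depth is unknown, and no test between samples was possible with 1 group.

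Among the central region genes, 4 of 5 had a conservative summit, and 3 of them were found in both replicates' own thresholded lists. Their highest signals ran from 116 to 1927 with a median of 658, and 3 lay above the list median of 149. Among the axis genes, 3 of 4 had a conservative summit and 1 was found in both replicates' own lists. Over all protein-coding genes, the corresponding shares were 15.8% and 10.7%. The axis signals ran from 73.1 to 131, and 0 of the 3 reached the list median. The stronger peaks were thus at syp-2, syp-4 and syp-5, and syp-3 lay within the range of the axis genes.

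**Figure D1:**
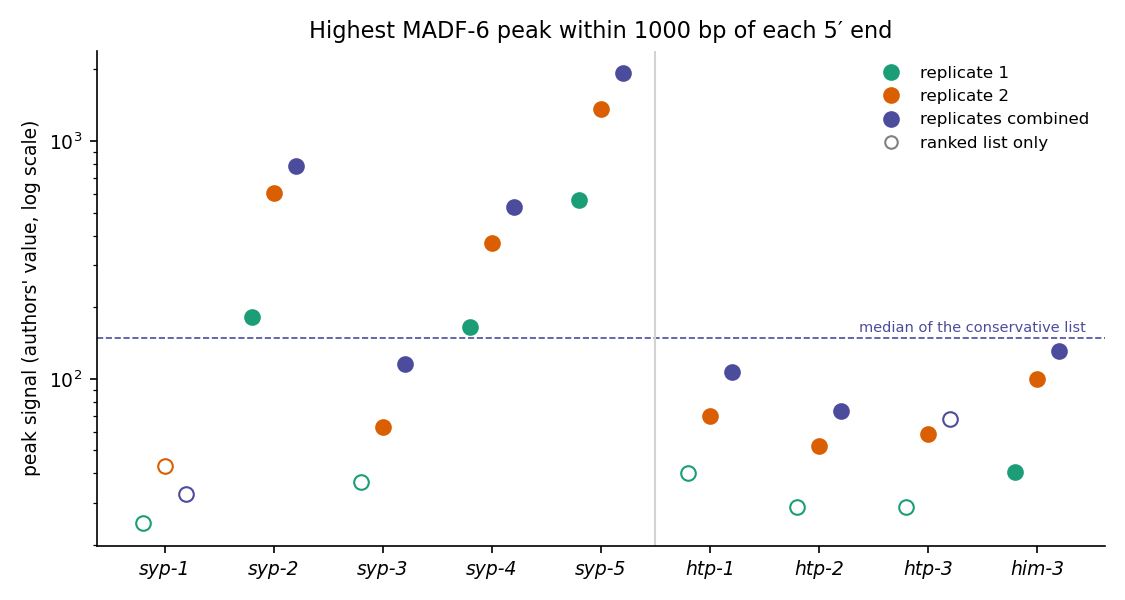
Signal of the highest peak within 1000 bp of each gene's 5′ end, on a log axis, in replicate 1, replicate 2 and the combined lists. Filled points are in the thresholded list (for the combined points, the conservative list) and open points only in the ranked list behind it. The dashed line is the conservative median of 149, which the combined points of syp-2, syp-4 and syp-5 exceed.

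At syp-2 (WBGene00006376, chrV:5536487-5537717, plus strand), the summit lay inside the annotated gene, in its 5′ UTR, 153 bp from the 5′ end and 129 bp before the start codon. The peak (chrV:5536502-5536758) had a signal of 786 and rank 243. Replicate 1 gave a signal of 182 at rank 409 of 2803, and replicate 2 gave 606 at rank 199 of 4519. Both replicates placed the peak in the upper part of their lists, with summits 8 bp apart. Over 3934 conservative summits matched in both replicates within 100 bp, the median distance was 17 bp and the median ratio of replicate 2 to replicate 1 signal was 2.03. The ratio of 3.32 at syp-2 was above the 90th percentile of 2.94. Divergent genes began nearby, with the summit 397 bp upstream of cox-16, named for cytochrome c oxidase assembly, and 766 bp upstream of C24G6.8. The 30 reference bases around an 11-base run that this summit shares with those of syp-5 and him-3 (chrV:5536606-5536635, WBcel235, plus strand, 5′ to 3′) are shown with the run in capitals.
syp-2: actgtaactTTAAAGGCGCAttacaaaata

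The strongest peak of the set was at syp-5 (WBGene00021832, chrI:3193528-3198838, minus strand), which encodes a central region protein with a paralog, SYP-6. Its signal was 562 in replicate 1, at rank 55, and 1368 in replicate 2, at rank 32. Both replicates placed it near the top of their lists. In the conservative list (chrI:3198890-3199169) the signal was 1927 and the summit lay 193 bp upstream of the 5′ end. The replicate summits were 18 bp apart. Among the 3158 protein-coding genes with a conservative summit, 1.17% had a higher signal than syp-5. No other annotated 5′ end lay within 1000 bp of this summit. The genes of most similar rank were acs-13, an acyl-CoA synthetase, at 1934 and unc-85, a histone chaperone of the ASF1 family, at 1893.

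At syp-4 (WBGene00019247, chrI:6847511-6849923, plus strand), the summit lay 158 bp upstream with a signal of 529 and rank 463. Replicate 1 gave 165 at rank 469 and replicate 2 gave 371 at rank 453, with summits 13 bp apart. Both replicates placed it in the upper part of their lists. The summit also lay 50 bp upstream of a divergent snRNA gene, H27M09.6, nearer than to syp-4 itself. It was 394 bp upstream of the protein-coding H27M09.5 and 219 bp inside the non-coding gene H27M09.7, so the peak cannot be given to syp-4 alone.

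The weakest central region gene with a conservative peak was syp-3 (WBGene00006377, chrI:8663045-8664445, minus strand). It had 2 summits, 16 bp upstream (signal 116, rank 2751) and 216 bp upstream (signal 110.3, rank 2879). In replicate 2 the thresholded summits lay 3 bp inside the gene (signal 62.5, rank 3578) and 199 bp upstream (signal 57.3, rank 3884). Replicate 1 had no thresholded summit here, and its ranked list held only the upstream one, with a signal of 37.0 and a score of 51. Both peaks at syp-3 therefore passed the threshold of replicate 2 alone. A divergent gene, F39H2.3, began 531 bp from the syp-3 5′ end.

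Part of the sequence under the syp-3 peaks is repeated. The windows around its summits share a run of 34 bases in inverted orientation, with centres 88 bp apart, and that run occurs 35 times in the genome over both strands. Of the 252 words of 50 bases around each summit, 70.2% at the upstream summit and 81.3% at the other were found once in the genome. At the other members with a conservative summit, the share was 100% at every summit. How the authors treated reads with several matches is not given in the sources used here, and its part in the syp-3 values was not tested.

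For syp-1 (WBGene00006375, chrV:16404274-16407701, plus strand), the founding member of the SYP proteins, none of the 4 thresholded lists had a summit within 1000 bp. The best peak of the combined ranked list lay 762 bp inside the gene, with a signal of 32.9 at rank 25456 of 63808. Replicate 1's ranked list gave its best signal, 24.7, at 366 bp inside, and replicate 2's gave 42.9 with a score of 636 at 707 bp inside. Replicate 2 also had a weaker ranked summit of 22.7 at 357 bp inside, near that of replicate 1. The annotated 5′ end of syp-1 is 1489 bp before its start codon, the longest such distance among the 9 genes. Measured from the start codon, a setting chosen after that distance was seen, syp-1 still had no conservative summit within 1000 bp. The nearest one lay 2564 bp upstream of the 5′ end, with a signal of 314, and was 181 bp from the 5′ end of F13A7.14.

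Among the axis genes, the highest signal was at him-3 (WBGene00001862, chrIV:6977508-6978765, plus strand), which encodes an axis protein needed for synapsis and crossing over. Replicate 1 gave a signal of 40.5 with a score of 838 at rank 2511, near the end of its list. Replicate 2 gave 99.4 at rank 2260. The conservative peak (chrIV:6977124-6977443) had a signal of 131 at rank 2443, with the summit 224 bp upstream, and the replicate summits were 28 bp apart. This was the only axis gene called in both replicates' own lists, and in replicate 1 its score was just above the minimum of 830. The neighbour is the divergent gene pgl-1, whose annotated 5′ end is 190 bp from that of him-3. It encodes a constitutive P granule protein of the germline, and the summit lay 34 bp inside the transcript with the outermost 5′ end and in its coding exon. The part of the summit window (chrIV:6977250-6977334, WBcel235, plus strand, 5′ to 3′) outside annotated UTRs is shown because it holds words that recur among the members, with GAGACC and the 11-base run, here on the minus strand, in capitals.
him-3: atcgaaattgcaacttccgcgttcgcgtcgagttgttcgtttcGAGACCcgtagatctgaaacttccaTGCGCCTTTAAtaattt

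At htp-1 (WBGene00002032, chrIV:5390189-5391557, minus strand), whose protein helps license synapsis and the later stepwise loss of cohesion, the ranked list of replicate 1 gave 40.3 with a score of 244, under the threshold. Replicate 2 gave 69.6 with a score of 871, at rank 3200. The conservative summit lay 261 bp upstream with a signal of 107 and rank 2961, and the replicate summits were 16 bp apart. It lay 111 bp upstream of the divergent gene ZK616.5, nearer than to the annotated 5′ end of htp-1. That 5′ end is the start codon, as no 5′ UTR is annotated for htp-1. At htp-2 (WBGene00002033, chrIV:6419522-6420898, plus strand), which encodes a close paralog of HTP-1, replicate 1 gave 28.8 with a score of 361 and replicate 2 gave 52.3 with a score of 903. The conservative summit lay 128 bp upstream with a signal of 73.1, a score of 935 and rank 4039, the lowest among the members, and 313 bp upstream of Y73B6BL.23. Both htp-1 and htp-2 thus passed in replicate 2 and not in replicate 1, although replicate 1 held a ranked summit at nearly the same place.

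The htp-1 and htp-2 peaks lie on a duplicated stretch. The coding sequences are 1056 bases each and 90.3% identical, and a block upstream of each gene aligned over 184 bases with 167 identical (90.8%). It covers 398 to 210 bp upstream of htp-1 and 224 to 34 bp upstream of htp-2. Both summits lie in it, but not at matching places. The longest run shared by the summit windows was 27 bases, while every word of 50 bases around either summit was found once in the genome. The word GAGACC, in capitals, stands in both blocks. Read along the strand of each gene, it comes before the htp-1 summit and after the htp-2 summit. They are shown on the strand of each gene, 5′ to 3′, from WBcel235, so that the likeness can be read (htp-1, chrIV:5391767-5391928, minus strand, without the stretch annotated as part of ZK616.5; htp-2, chrIV:6419298-6419488, plus strand).
htp-1: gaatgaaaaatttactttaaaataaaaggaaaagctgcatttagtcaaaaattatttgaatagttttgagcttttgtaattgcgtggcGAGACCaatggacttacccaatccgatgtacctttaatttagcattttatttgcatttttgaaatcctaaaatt
htp-2: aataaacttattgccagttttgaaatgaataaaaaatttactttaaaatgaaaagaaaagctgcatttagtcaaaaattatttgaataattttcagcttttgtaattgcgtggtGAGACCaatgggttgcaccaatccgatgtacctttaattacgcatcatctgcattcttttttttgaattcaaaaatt

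**Figure D2:**
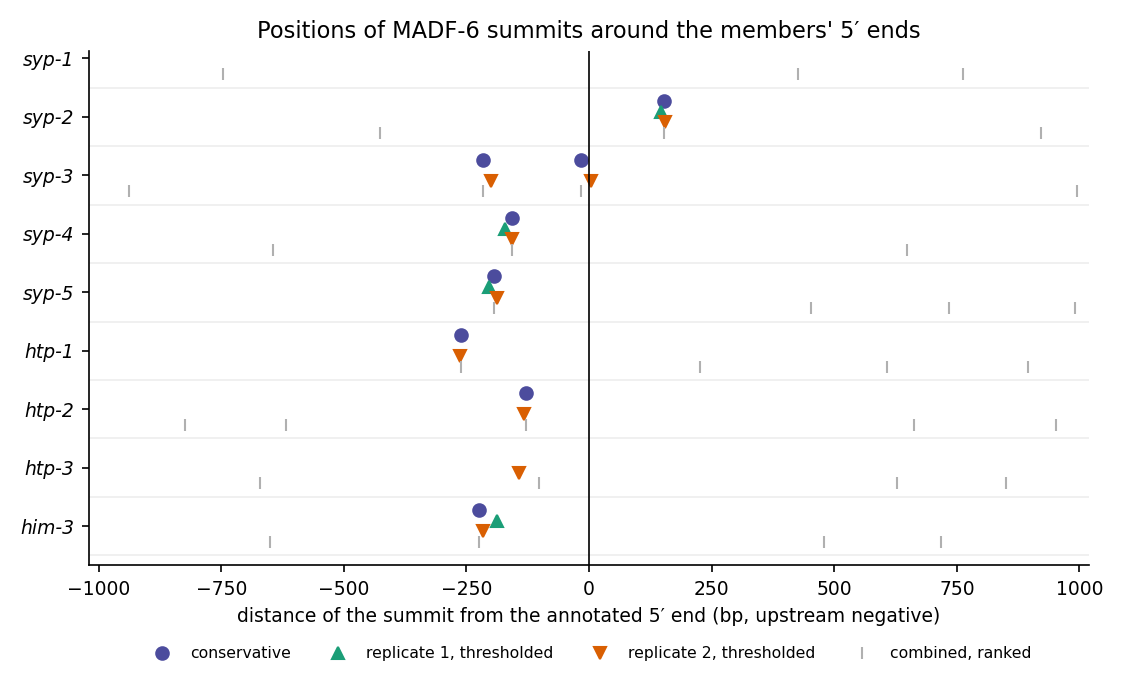
Distance in bp of each summit from the annotated 5′ end (0, upstream negative) for the 9 genes in the conservative list, each replicate's thresholded list and the combined ranked list. Conservative summits lie between 261 and 16 bp upstream except at syp-2, where the summit is 153 bp inside, and syp-1 has ranked summits only.

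The lists disagreed at htp-3 (WBGene00002034, chrI:4827072-4829791, plus strand), whose protein loads the other HORMA-domain proteins onto the axis. Replicate 2's thresholded list had a summit 142 bp upstream, with a signal of 58.6, a score of 1000 and rank 3808. The less strict combined list had its summit at another place, 672 bp upstream, with a signal of 67.7 and a score of 997. That second position scored 623 in the combined ranked list from which the conservative one was drawn, where the one nearer the 5′ end scored 86, and neither reached the threshold. In the other combined ranked list the position nearer the 5′ end scored 740, still under the threshold, and the outer one 997. Replicate 1's best ranked summit lay 618 bp upstream with a signal of 28.9 and a score of 280. Replicate 2's ranked list also held a summit near there, 719 bp upstream, with a signal of 37.5 and a score of 469. Each replicate thus held a ranked summit below the threshold in the outer region. These 2 lay farther apart than the 90th percentile of 65 bp for conservative summits matched in both replicates. The inner summit passed the threshold of replicate 2 alone. The divergent gene tofu-4, named for a role in piRNA biogenesis, begins 433 bp from the htp-3 5′ end, and the outer summit lay 239 bp inside it. The nearest conservative summit was 2936 bp away, within 127 bp of the 5′ end of F57C9.4.

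The count of members moved with the list. Both replicates' own thresholded lists held a summit at 4 of the 9 genes (syp-2, syp-4, syp-5 and him-3), against 10.7% of all protein-coding genes. Replicate 1's own list held the same 4, against 11.4%, and replicate 2's held 8, against 16.5%. The less strict combined list also held 8, against 17.3%, and in each case of 8 the missing gene was syp-1. The ranked list behind the conservative one reached all 9, but it also reached 51.4% of all protein-coding genes. Background shares differed between chromosomes. They were 23.9% on chromosome I, where 4 members lie, 16.8% on IV, where 3 lie, and 10.8% on V, where 2 lie.

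Set among all 3158 genes with a conservative summit, the members spread over nearly the whole range of signal. A higher signal was found at 1.17% of these genes for syp-5, 9.34% for syp-2 and 17.2% for syp-4. The corresponding shares were 70.9% for him-3, 76.8% for syp-3, 80.4% for htp-1 and 97.7% for htp-2. The median highest signal was 131 over the 7 members and 206 over the other 3151 genes. In taking rank neighbours, peaks without a protein-coding 5′ end within 500 bp of the summit were passed over. By this rule, the genes next in rank to him-3 were kin-10, a casein kinase subunit, and aqp-12, an aquaporin. Around syp-2 they were rpl-12 and eef-2, which encode a ribosomal protein and a translation elongation factor. Around syp-4 they were F56C9.6 and npp-9, a nucleoporin, and around syp-3 they were lsy-27 and egg-2. Around htp-1 they were B0464.9 and mrps-21, a mitochondrial ribosomal protein, and around htp-2 they were bgal-1 and Y71F9AL.9.

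**Figure D3:**
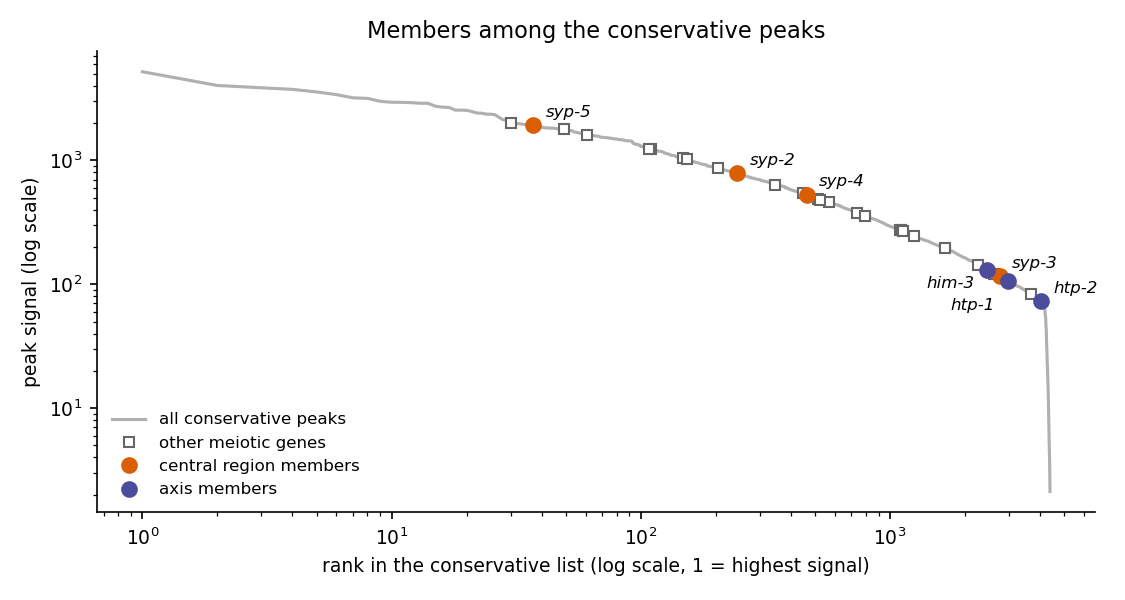
Signal against rank in the conservative list, both on log axes, with the highest summit of each member and of the other meiotic genes marked on the curve of all 4384 peaks. The genes syp-5, syp-2 and syp-4 lie between ranks 37 and 463, and him-3, syp-3, htp-1 and htp-2 between ranks 2443 and 4039.

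In position, the summit was upstream of the 5′ end at 6 of the 7 members, with syp-2 the exception, against 77.5% of the other genes reached. The median was 158 bp upstream for the members and 184 bp for the others. Of the 7, 5 had their summit between 100 and 300 bp upstream, against 32.5% of the others. At 6 of the 7, all but syp-5, the 5′ end of a divergent protein-coding gene lay within 1000 bp of the same summit, against 40.8% of the other genes reached. The htp-1, htp-2 and him-3 peaks all had the commonest width of 320 bp, shared by 57.3% of the list, whereas syp-2, syp-4 and syp-5 had widths of 257, 250 and 280 bp and the 2 weak syp-3 peaks had widths of 147 and 81 bp.

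Sequence was compared with words taken from the other 4376 conservative summits and not from the members. For the words of 6 bases, both strands were counted in windows of 101 bp, and the 3 that stood most above flanking windows were then looked up at the members. The first, GGCGCA, was in 14.1% of the other summit windows, 2.16% of windows centred 300 bp away and 2.27% of windows 150 bp upstream of all protein-coding genes. It was in the windows of syp-2, syp-5 and him-3. The next, AGGCGC, overlaps it by 5 bases, was in the windows of the same 3 genes and had shares of 13.5%, 2.06% and 1.82%. The last, GAGACC, was in the windows of syp-4, syp-5, htp-1, htp-2 and him-3, with shares of 14.6%, 3.38% and 2.98%. At least 1 of the words stood in 6 of the 7 members' windows, all but syp-3, against 26.7% of other summits and 5.72% of promoter windows. In this count htp-1 and htp-2 are not independent, because both hold only GAGACC, in their duplicated block. TTTGAA, an element bound by the DREAM complex subunit LIN-54, stood in the windows of htp-1 and htp-2, but it was less frequent at other summits (20.7%) than in promoter windows (29.6%). TTCGAA, its other form, was in 0 of the members' windows and in 7.36% of other summit windows, 7.61% of flanking windows and 6.54% of promoter windows.

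The longest run shared by at least 3 members, found by comparing their windows, was TTAAAGGCGCA, which contains both GGCGCA and AGGCGC. As it was picked from the members, its presence at syp-2, syp-5 and him-3 is a description. Elsewhere it was in 6.01% of other summit windows, 0.514% of flanking windows and 0.446% of promoter windows. It stood in 9.46% of the windows with signals at or above the list median and in 2.56% of those below. Of the 24 other meiotic genes with a conservative summit, 5 had it (chk-2, coh-3, coh-4, smc-3 and zim-1), and chk-2 had it at both of its summits. This count is by gene, and some genes have 2 summits. The 6.01% is by summit window and includes the windows of these genes, so the values are not directly comparable. The coh-3 and coh-4 sites, from paralogous cohesin subunit genes with the strongest signals among those 5, are shown on the strand of each gene, 5′ to 3′, with the run, which is on the opposite strand, in capitals (coh-3, chrV:14457273-14457302, plus strand; coh-4, chrV:4175770-4175799, minus strand; WBcel235).
coh-3: tttgatgtgTGCGCCTTTAAagaagtagta
coh-4: ttttgatttgTGCGCCTTTAAagaaatggt

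The GC content of the same windows was 45.5% at syp-5, 36.6% at syp-2 and 52.5% at syp-4, and 33.7% at htp-1, 34.7% at htp-2 and 44.6% at him-3. At syp-3 it was 49.5% and 51.5% at the inner and outer summits. The median was 43.6% for other conservative summits and 33.7% for promoter windows, so the htp-1 window was at the promoter median.

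Other genes of meiotic prophase, listed with earlier results of these data known, were compared by role. Of 35 listed names, 34 were found in the annotation (smc-1 was not under that name), and 24 of those had a conservative summit within 1000 bp, beside the 15.8% of all genes. In both replicates' own lists there were 21, beside 10.7% of all genes. Their median signal was 469, and 21 of the 24 exceeded each axis member. Among the other synaptonemal complex genes, syp-6, the paralog of syp-5, had a signal of 1786 at rank 49, with the summit 120 bp upstream. The pair syp-5 and syp-6 therefore lay close together in rank. The Skp1-related genes skr-1 and skr-2, whose products are also part of the complex, had no conservative summit.

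Cohesin subunits load beneath the axis, and some of the strongest peaks lay within 1000 bp of their genes. For the other meiotic genes, unlike the members, neighbouring 5′ ends were not examined gene by gene. Their peaks may therefore lie nearer to another gene. Of the 6 cohesion and axis genes found, 5 had a conservative summit. The share over all genes, here and for each role below, was 15.8%. The meiotic kleisins coh-3 (signal 1999, rank 30), coh-4 (1614, rank 61) and rec-8 (1229, rank 110) all ranked far above the HORMA-domain genes. The cohesin core gene smc-3 had 2 conservative summits within 1000 bp, and the stronger, with a signal of 868, lay 832 bp upstream. The remaining gene reached was lab-1, which protects cohesion, and scc-2, the cohesin loader, was not reached. Among regulators of the axis and synapsis, 5 of 7 were reached (chk-2 and plk-2, which are kinases, the phosphatase gene pph-4.1, pch-2 and hal-3), and cmt-1 and hal-2 were not. Among pairing genes, 3 of 6 were reached (sun-1 and zyg-12, which bridge the nuclear envelope, and zim-1), and him-8, zim-2 and zim-3, which encode other pairing-center proteins, were not.

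Genes of break formation and crossing over were reached at 10 of 12, beside 15.8% of all genes. The strongest were zhp-3 (signal 1229, rank 108), a RING-finger protein of crossover sites, dsb-2 (1048), which promotes double-strand breaks, and zhp-2 (1026). The others reached were cosa-1, spo-11, msh-5, zhp-1, him-17, dsb-1 and him-14, and dsb-3 and zhp-4 were not. The lowest, him-14, had a signal of 84.1, above htp-2 and below the other axis members with a summit.

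**Figure D4:**
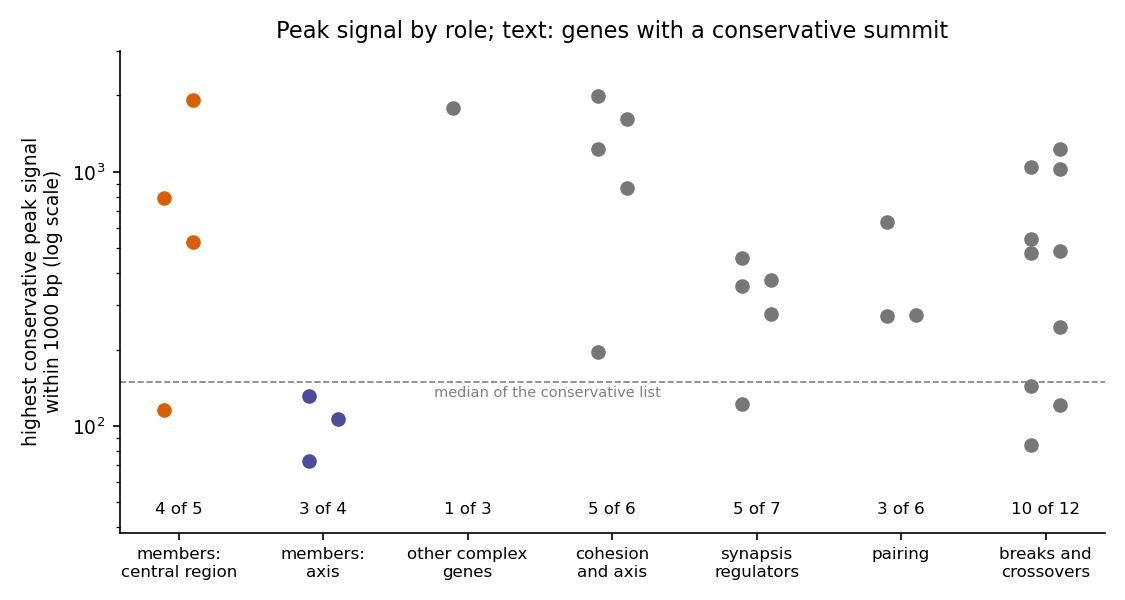
Highest conservative signal within 1000 bp of the 5′ end, on a log axis, for each member and each other meiotic gene, grouped by role, with the number of genes reached of those in the annotation under each column. The 3 axis members lie below the dashed list median of 149, as do 1 central region member (syp-3) and 4 of the 24 other genes.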

How the data were processed

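ChIP-seq peak lists on ce11, which is WBcel235, were used as deposited. The authors' score is a scaled irreproducible discovery rate. The deposited signal is the authors' enrichment value per peak, and the deposited summit offset (other) is counted from the peak start. For the aligner and peak caller, names and settings were not given in the sources used here. Read depth is unknown. The ranked lists hold 57453 to 65847 peaks and the thresholded lists 2803 to 5060.

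Each summit was measured to the 5′ end of the gene record in Ensembl release 115, in 1-based coordinates. A member was called when a summit lay within 1000 bp. Ranks are by signal within a list. Windows for words reach 50 bp to each side. Replicate summits were matched within 100 bp. The htp-1 and htp-2 blocks were aligned locally with Biopython 1.88, in Python 3.11.15 with numpy 2.4.6, pandas 2.3.3 and matplotlib 3.10.9. The distance procedure was tested on simulated data. Of the word procedure, only the reverse complement was checked, on a known sequence.

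Members and gene lists were chosen with earlier results of these data known, so no test over them was run. The text names the 9 members, genes with a 5′ end within 1000 bp of their summits, other meiotic genes by role with signals for the 8 highest, and the genes of nearest rank. The signals of him-14 and the genes holding the 11-base run were named after their values were seen. Alternatives covered other windows, lists, replicates and gene ends.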

Additional observations from a re-analysis of the deposited data

How the results depend on the processing

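The conservative count of 7 members remained 7 with a window of 500 bp, with any base of the peak within 1000 bp, with the 5′ end of any transcript and with distances from the start codon, the last chosen after seeing the data, while these settings reached 12.3% to 16.6% of all genes. It was 6 with 250 bp, without htp-1, against 8.14% of all genes. It was 5, against 12.3%, when each summit counted for its nearest protein-coding 5′ end only, without htp-1 and him-3. The syp-4 summit is nearer to an snRNA gene, which that count leaves aside. In the stronger part of the list, at or above the median signal, it was 3 (syp-2, syp-4 and syp-5), against 10.3% of all genes. Leaving out a replicate and using the other's own list gave 4 to 8, against 11.4% to 16.5% of all genes, the 4 being without replicate 2. With each replicate's ranked list in place of its thresholded one, 9 members were reached in both, against 46.3% of all genes. The rank percentile of the strongest summit, 0.844 in the conservative list, was 0.708 to 1.96 with a replicate left out. The median offset of -158 bp ranged from -188 to -158 bp, with -179.5 bp in replicate 1's thresholded list. Words held by 6 members were held by 3 with windows of 100 bp to each side, where ACGCGC took the place of GAGACC, by the construction of the list of words. With words of 7 bases the count was 5, and syp-3, without a word of 6 bases, held AAAGGCG. The other meiotic genes, 24 in all, were 17 to 26 under other windows and the less strict list, against 8.14% to 17.3% of all genes. With a replicate left out they were 21 to 27, against 11.4% to 16.5% of all genes. No paired analysis was possible because there was 1 group. Depth is unknown, so no absence here separates weak binding from shallow sequencing.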
